A study of Mus musculus with 11 samples.

Results

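The solute carrier (Slc) genes of 3T3-L1 cells, a mouse preadipocyte line that can be turned into fat cells, were followed through treatment with 3 thiazolidinediones, drugs that activate the nuclear receptor PPARγ. The members were the probe sets annotated to a single gene whose symbol starts with Slc, leaving out the mitochondrial carriers (Slc25a) and Slc2a1, Slc2a4, Slc27a1, Slc30a1, Slc3a2, Slc7a5 and Slc7a11. A probe set is a group of short probes on the array that measures one transcript. The rule itself reads names only, but it was set with earlier results of these data known. It gave 156 probe sets for 127 genes in 40 families, out of 12422 probe sets on the array once controls were set aside. Of the 188 single-gene Slc probe sets, 24 belonged to Slc25a genes and 8 to the 7 named genes. Not all members sit at the cell surface: by textbook location 103 probe sets lay in 23 plasma membrane families, 37 in 11 families with members at both sites, and 16 in 6 families of intracellular membranes. In addition, 3 members are not carriers but bear a carrier's name. These were Slc4a1ap, named after a binding partner of an anion exchanger, and Slc9a3r1 and Slc9a3r2, scaffold proteins that bind sodium-proton exchangers.

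The 11 arrays, 1 per RNA sample, held cells kept for 24 h in 20 µM pioglitazone (2 arrays), 1 µM rosiglitazone (3 arrays), 20 µM troglitazone (3 arrays) or the vehicle, DMSO at 0.1% (3 arrays). By their titles, set 1 holds replicates 1 and 2 of every group and set 2 holds replicate 4 of all groups but pioglitazone. The labels give neither the stage of differentiation nor whether replicates were separate cultures, so the p-values measure only the spread between these samples, which may be technical. Rosiglitazone was used at another dose than the other drugs, so its values stand beside theirs and only troglitazone and pioglitazone, matched at 20 µM, were compared with each other.

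Solute carriers are membrane proteins that move small molecules, such as sugars, amino acids, nucleosides and metal ions, without splitting ATP themselves. Many of them couple uptake to the sodium gradient that the sodium pump keeps up, and others exchange one solute for another or let it flow down its own gradient. Families are numbered by sequence, and each family tends to share a class of substrate. In fat cells, as in others, they bring in glucose, amino acids, phosphate and nucleosides and let lactate leave.

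Upstream windows are shown for 3 genes, described further on, whose treated and vehicle arrays did not overlap and whose window holds AGGTCA, the hexamer that nuclear receptors such as PPARγ bind as a repeat. The windows are RefSeq sequence on GRCm38.p6, 5′ to 3′ along the gene's strand, and end at the base before an annotated start. Capitals mark AGGTCA or, on the other strand, TGACCT. The window of Slc29a1 is chr17:45592938-45593187 on the minus strand, with the hexamer 86 bases before the start. That of Slc4a4 is chr5:89027716-89027965 on the plus strand, with the hexamer 121 bases before the start. That of Slc51a is chr16:32487880-32488129 on the minus strand, with the hexamer 58 bases before the start.
Slc29a1: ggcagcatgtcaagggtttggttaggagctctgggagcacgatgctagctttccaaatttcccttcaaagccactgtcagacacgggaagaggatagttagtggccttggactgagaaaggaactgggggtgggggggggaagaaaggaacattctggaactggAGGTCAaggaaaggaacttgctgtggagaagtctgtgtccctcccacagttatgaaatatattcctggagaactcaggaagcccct
Slc4a4: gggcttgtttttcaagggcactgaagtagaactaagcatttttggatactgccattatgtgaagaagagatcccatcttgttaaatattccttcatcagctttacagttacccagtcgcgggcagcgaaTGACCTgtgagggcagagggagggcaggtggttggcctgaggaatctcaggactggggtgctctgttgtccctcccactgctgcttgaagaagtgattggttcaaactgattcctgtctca
Slc51a: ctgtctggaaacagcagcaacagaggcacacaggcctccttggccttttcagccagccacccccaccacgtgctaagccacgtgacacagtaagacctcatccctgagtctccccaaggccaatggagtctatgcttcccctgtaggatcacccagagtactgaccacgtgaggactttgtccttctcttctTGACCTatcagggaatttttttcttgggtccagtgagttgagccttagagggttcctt
Slc29a1 has 8 annotated windows, of which 2 hold the hexamer, and Slc4a4 has 2, of which 1 holds it. Over windows of 300 bases (250 before and 50 after the start), 102 of the 127 member genes could be searched on both strands. AGGTCA occurred in 20 of them (19.6%), against 18.1% of the 27025 genes in the table. A direct repeat of AGGTCA spaced by 1 base, the element of PPARγ with its partner RXR, was in 0 of 102, against 0.0481% of all genes. TGATGNAA, the amino acid response element bound by ATF4, was in 5 (4.9%), against 4.51%. The shares of members were thus near those of all genes, and such a match describes letters only.

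Values are signals on a linear scale that the authors had already scaled to the same trimmed mean on each array (500.3 to 500.4). Since probes differ in how strongly they bind, a brighter probe set need not mean more RNA than a dimmer one of another gene. Signals up to a floor of 73.7, the 25th percentile of all values, were treated as background. The share of members at or below the floor ran from 21.2% to 37.8% by array and was 31.4% to 37.8% on the 3 arrays of set 2. Rosiglitazone replicate 2 stood apart from the other arrays. Its median correlation with them was 0.833 over the probe sets above the floor on at least 2 arrays, against 0.874 to 0.896 for the rest. The 3′ to 5′ ratio of the actin control is a sign of RNA quality. It was 4.86 on pioglitazone replicate 2, 3.74 to 3.9 in set 2 and 1.79 to 2.27 elsewhere. Of 10 adipocyte markers 8 were measured, all above the floor on all 11 arrays. The summed signal of 8 preadipocyte and fibroblast markers was 4514 to 5437 with pioglitazone, 5714 to 6106 with rosiglitazone, 4101 to 5628 with troglitazone and 8698 to 10149 with vehicle. Markers of other cells gave mixed readings: above the floor on all 11 arrays were 2 of 8 macrophage markers (Csf1r and Cd14), 3 of 6 epithelial (Cdh1, Krt8 and Krt18), 0 of 5 endothelial, 1 of 5 neuronal (Stmn2) and 3 of 5 skeletal muscle markers (Myod1, Myog and Des), while Lyz2, Epcam, Cdh5 and Snap25 were above it on 1 array at most.

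A smaller share of carriers than of all probe sets was above the floor throughout. Above the floor on all 11 arrays were 55 members (35.3%), against 45.8% of all probe sets, 90 crossed the floor on some arrays, and 11 lay at background, above it on 1 array at most. Members of the plasma membrane families were above the floor throughout in 28.2% of cases, those of mixed families in 51.4% and those of intracellular families in 43.8%. In 23 families at least 1 probe set was above the floor on every array, and in 17 none was. The families with many dim members and none above the floor throughout included Slc7 (cationic amino acids and light subunits of amino acid exchangers, 5 crossing the floor and 3 at background), Slc16 (monocarboxylates, 2 and 1) and Slc8 (sodium-calcium exchange, 2 and 1). These counts cover members only. Slc7a5 and Slc3a2, left out by name, were above the floor on all 11 arrays, though families Slc7 and Slc3 are among the 17. The 10 probe sets of Slc22, the carriers of organic ions and carnitine, held 1 above the floor throughout, the urate carrier Slc22a12.

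**Figure D1:**
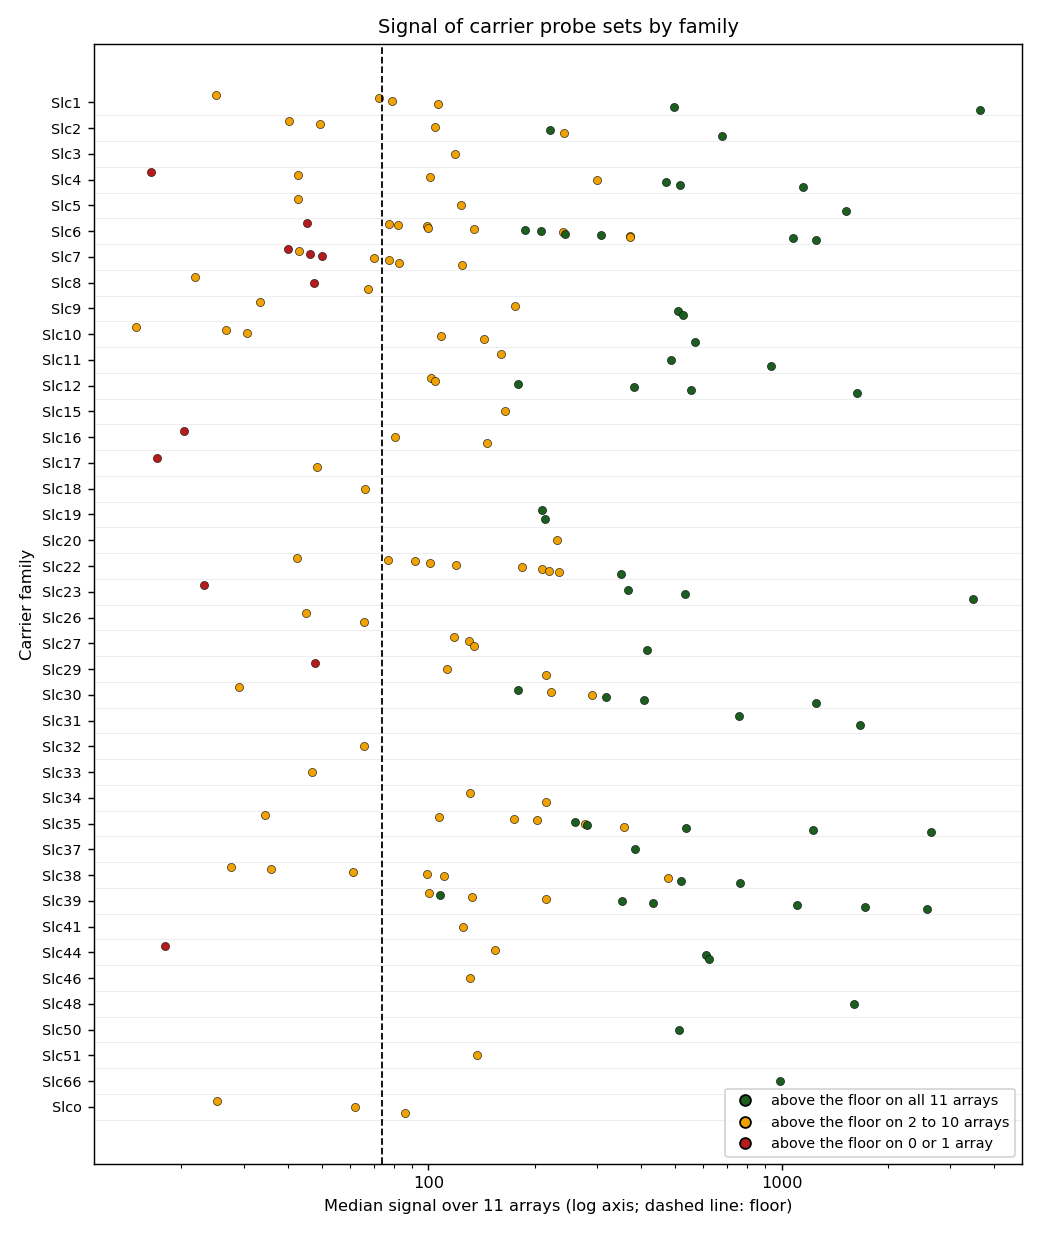
Each point is 1 of the 156 carrier probe sets, placed by its median signal over the 11 arrays (log axis) and its family, with Slco for the organic anion carriers once numbered 21. Colours give the arrays above the floor of 73.7 (dashed line): 55 probe sets were above it on all 11 arrays, 90 on some, and 11 on 1 array at most.

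The 11 members at background belong to 11 genes. For 6 of these no other probe set was tested: the electrogenic bicarbonate carrier Slc4a5, the cationic amino acid carrier Slc7a1, the light subunit Slc7a7, the monocarboxylate carrier Slc16a7, the ascorbate carrier Slc23a1 and the second equilibrative nucleoside carrier Slc29a2. Slc7a1 reached 107 on rosiglitazone replicate 2 and stayed between 14.3 and 71.2 on the other arrays. Slc7a7 stood at 390.2 on vehicle replicate 2 alone, and Slc29a2 at 103 on that same array. The other 5 (Slc6a4, Slc7a6, Slc8a1, Slc17a1 and Slc44a4) had another probe set above the floor on 2 or more arrays. In all, 4 of the 11 were above the floor on 0 arrays and 7 on 1. An absent signal here limits only what these probes could measure.

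Bright carriers came from several families. The brightest member with vehicle was Slc1a5, which exchanges glutamine and other neutral amino acids, with signals of 3649 and 3588 with pioglitazone, 3598, 3629 and 4255 with rosiglitazone, 3312, 3932 and 4961 with troglitazone, and 3761, 3683 and 3437 with vehicle. Its treated and vehicle arrays overlapped, and the log2 difference between the mean of the 3 drugs and vehicle was 0.09. Next came Slc23a3, a relative of the ascorbate carriers, whose probe set 161149_r_at gave 3335 ± 785 with vehicle (SD, n = 3), and Slc35b1, a nucleotide carrier of the endoplasmic reticulum, with 2456 ± 309.5 (SD, n = 3). The zinc importers Slc39a1 and Slc39a4 (162284_r_at) had 2386 ± 568 and 1704 ± 71.8 with vehicle (SD, n = 3), the potassium-chloride carrier Slc12a7 had 1891 ± 88.6, and Slc5a6, which takes up biotin and pantothenate, 1679 ± 211. The heme carrier Slc48a1 (1678 ± 255), the copper importer Slc31a1 (1585 ± 312) and the taurine carrier Slc6a6 (1406 ± 149.7) completed the 10 brightest. Several of these genes had a dimmer second probe set. Over the 11 arrays its mean log2 signal was 8.36 beside 11.56 for Slc23a3, 7.55 beside 10.75 for Slc39a4 and 6.93 beside 11.5 for Slc39a1. For Slc31a1 it was 9.57 beside 10.71, and for Slc6a6 8.15 beside 10.26. The log2 differences of the 10 brightest probe sets between the mean of the drugs and vehicle ran from -0.29 (Slc23a3) to 0.46 (Slc39a1), and none passed the test. Slc39a1 had signals of 4164 and 2302 with pioglitazone, 2574, 2565 and 4173 with rosiglitazone, 4551, 2281 and 3353 with troglitazone, and 2346, 1838 and 2973 with vehicle. Its groups overlapped, since pioglitazone replicate 2 and troglitazone replicate 2 lay under 2 of the vehicle arrays. Slc12a7 was at 1535 and 1466 with pioglitazone, 1347, 1333 and 1636 with rosiglitazone, 1620.4, 1716 and 2262 with troglitazone, and 1833, 1846 and 1993 with vehicle, so that all pioglitazone and rosiglitazone arrays were below all vehicle arrays, with log2 differences of -0.24 and -0.40 (adjusted p 0.357 for rosiglitazone, limma), and troglitazone overlapped vehicle. For Slc6a6 the rosiglitazone arrays also lay below vehicle (949.6, 825 and 1147 against 1249, 1547 and 1423, log2 difference -0.54, adjusted p 0.372, limma), while the pioglitazone and troglitazone arrays overlapped it.

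**Figure D2:**
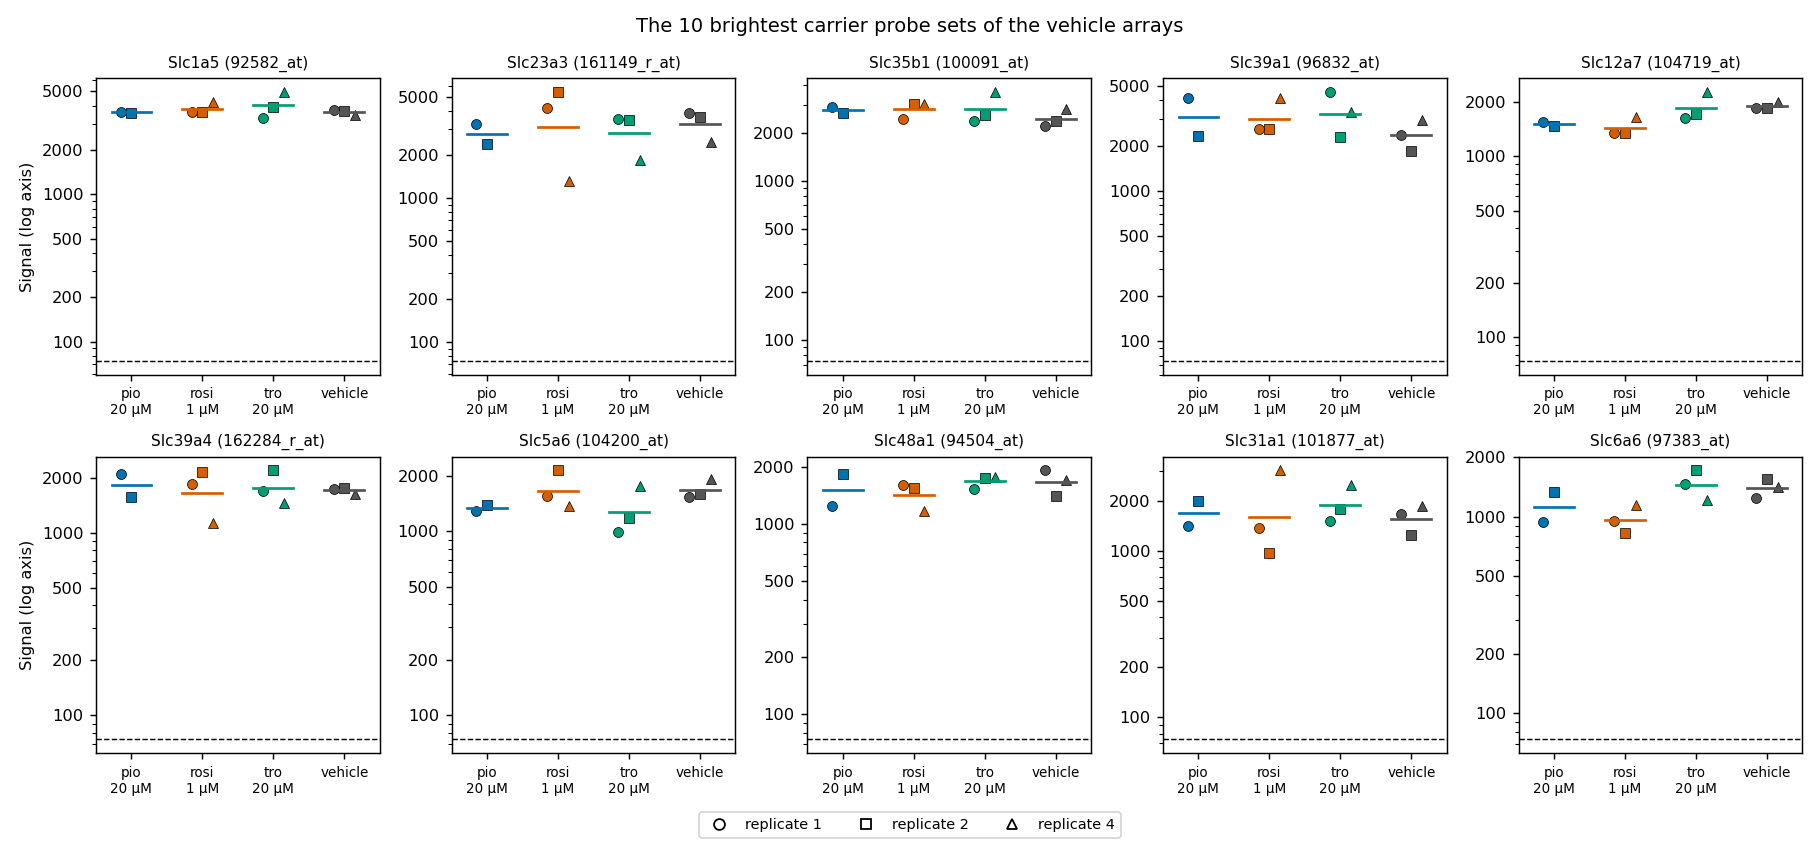
Signals (log axis) of the 10 carrier probe sets with the highest vehicle mean on each array, with the drugs to the left of vehicle, symbols for the replicate, bars at the geometric mean of each group and a dashed line at the floor. The groups overlap in most panels; Slc12a7 is lower on all pioglitazone and rosiglitazone arrays (1333 to 1636) than on the vehicle arrays (1833 to 1993).

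No member passed the test with any single drug, and 1 did over the mean of the 3. Slc2a1, a carrier left out by name, did pass with troglitazone (log2 difference 1.99, adjusted p 0.00321, limma) and over the mean. Differences were estimated with limma on log2 signals, with a term for the set of arrays, for the 145 members (121 genes) above the floor on at least 2 arrays; p-values were adjusted by Benjamini-Hochberg over all 11739 probe sets tested. With pioglitazone 0 members passed an adjusted p of 0.05, where 0.903% of all tested probe sets did, and 10 had an unadjusted p under 0.05 (6.9% of members, 9.85% of all). With rosiglitazone 0 passed, against 1.35% of all, and 11 had an unadjusted p under 0.05 (7.59%, against 10.5% of all). With troglitazone 0 passed, against 1.33% of all, and 9 had an unadjusted p under 0.05 (6.21%, against 8.32% of all). For the mean of the 3 drugs, which all 8 treated arrays enter, 1 member fell (0.69%, against 0.86% of all) and 0 rose (against 1.28% of all), beside 2.14% of all tested probe sets in either direction, and 10 had an unadjusted p under 0.05 (6.9%, against 10.5% of all). The median log2 difference of the members was -0.13, -0.03 and -0.01 for pioglitazone, rosiglitazone and troglitazone, beside -0.08, 0.00 and -0.03 for all tested probe sets. These 3 comparisons share the vehicle arrays. Precision was limited: the 95% interval of a member, without adjustment, reached a median of 1.17, 1.01 and 1.01 log2 units to either side. A typical member needed a change of about that size for an unadjusted p under 0.05, and a larger one to pass the adjusted test. In a bulk measurement, fewer cells of a type and less RNA per cell cannot be told apart.

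**Figure D3:**
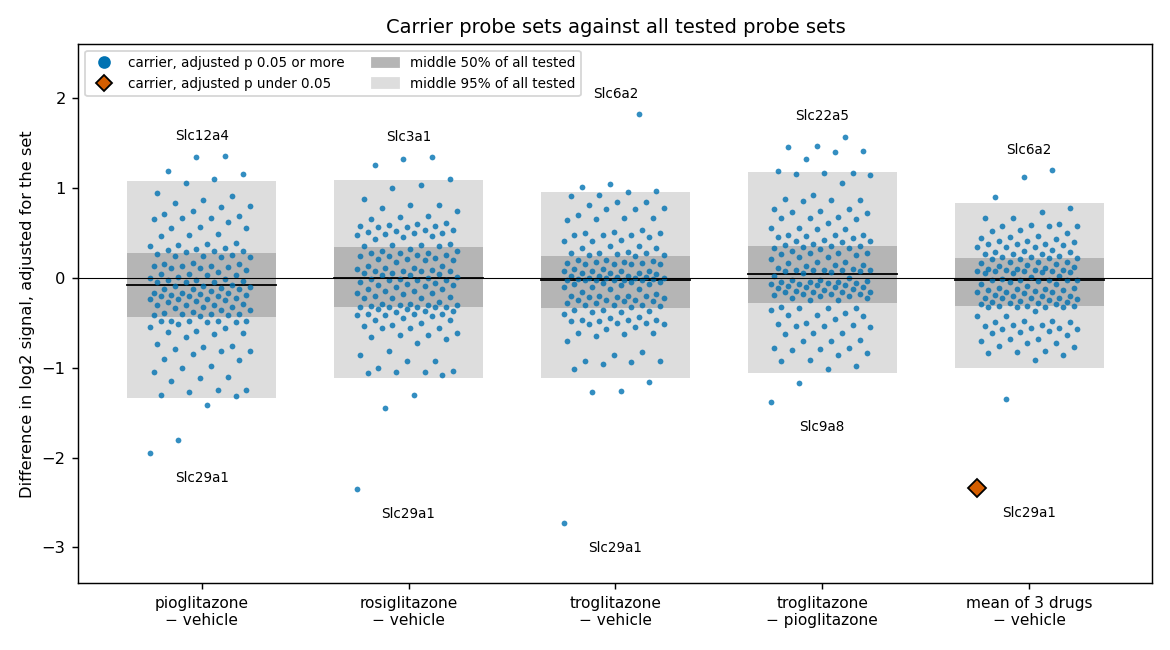
Log2 differences of the 145 tested carrier probe sets in 5 comparisons (points), over the middle 50% and 95% of all 11739 tested probe sets (dark and light grey) and their median (line), with names at the lowest and highest member. A single member, Slc29a1 for the mean of the drugs (-2.34, diamond), has an adjusted p under 0.05, and the other points lie mostly within the grey bands.

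The member that passed was Slc29a1, the equilibrative nucleoside carrier ENT1, through which adenosine and other nucleosides cross the cell membrane. Its probe set 95733_at gave signals of 134 and 113 with pioglitazone, 191, 72.1 and 87.8 with rosiglitazone, 74.3, 83.5 and 89.6 with troglitazone, and 242, 477 and 1411 with vehicle. All 8 treated arrays were below all 3 vehicle arrays, the lowest of them, rosiglitazone replicate 2, under the floor, and the vehicle arrays themselves spread widely, with set 2 highest. The means were 123 ± 14.6 with pioglitazone (SD, n = 2), 117 ± 64.3 with rosiglitazone, 82.5 ± 7.7 with troglitazone and 709.8 ± 618 with vehicle (SD, n = 3 each). Over the mean of the drugs Slc29a1 fell by 2.34 ± 0.54 on the log2 scale (SE, 95% interval -3.49 to -1.20, adjusted p 0.0311, limma, lower on 8 of 8 treated arrays). The drugs taken singly had log2 differences of -1.95 for pioglitazone (adjusted p 0.351), -2.35 for rosiglitazone (0.107) and -2.73 for troglitazone (0.051), none past the threshold. Within set 1 the differences were -1.47, -1.52 and -2.11, and within set 2, with 1 array a group, they were -4.01 for rosiglitazone and -3.98 for troglitazone. The call had little margin: it was kept without vehicle replicate 1 or rosiglitazone replicate 1, and lost with any of the other 9 arrays left out (vehicle 2 or 4, either pioglitazone array, rosiglitazone 2 or 4, or any troglitazone array), with an adjusted p of 0.0241 to 0.211 over the 11. In 8 of these 9 losses the difference stayed between -2.38 and -2.11. Without vehicle replicate 4 it was -1.70 (adjusted p 0.211), over 1.5 times smaller as a fold, and the call was also lost with quantile normalisation, a floor at the 50th percentile (-1.32), no filter, no set term, set 1 alone (-1.70) or no intensity trend. For troglitazone alone the probe set passed without vehicle replicate 1 (-3.26, adjusted p 0.0475) or with a constant added instead of a floor (-2.03, adjusted p 0.0407).

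A second probe set of Slc29a1, 161687_r_at, did not show the same separation. Its signals were 370.3 and 312 with pioglitazone, 497, 169.5 and 64.0 with rosiglitazone, 423, 78.0 and 15.8 with troglitazone, and 200.4, 464 and 215 with vehicle, so that treated and vehicle arrays overlapped in every comparison. The log2 difference for the mean of the drugs was -0.56 (adjusted p 0.844), and -1.01 ± 0.71 (SE) for troglitazone. The sum of the preadipocyte and fibroblast markers, given above, was also lower on all treated arrays than with vehicle, and its part in the result for Slc29a1 was not tested.

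Besides Slc29a1, 5 members had all 8 treated arrays on one side of all 3 vehicle arrays, without passing the test. The 6 together make 4.14% of the tested members, against 3.24% of all tested probe sets, a share near the background; 4 lay higher with the drugs (2.76%, against 1.29%) and 2 lower (1.38%, against 1.94%). Slc35e4, an orphan relative of the nucleotide sugar carriers, was the other member on the low side. Its signals were 57.4 and 465 with pioglitazone, 399, 161 and 231 with rosiglitazone, 358, 352 and 252 with troglitazone, and 576, 742 and 516 with vehicle. The vehicle arrays were the 3 highest of the 11, while pioglitazone held both the lowest array, under the floor, and the highest treated one. The log2 difference was -1.35 ± 0.50 (SE, adjusted p 0.284, limma) for the mean of the drugs and -1.81 for pioglitazone (0.349). Without pioglitazone replicate 2, the highest of the treated arrays, this member passed instead (-1.79 for the mean of the drugs, adjusted p 0.0429, and -3.14 for pioglitazone), and Slc29a1 did not.

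The other 4 lay higher on the treated arrays. Slc4a4, the sodium-bicarbonate carrier NBCe1 that sets intracellular pH, had signals of 516 and 429.5 with pioglitazone, 570.1, 513 and 793 with rosiglitazone, 583, 597 and 1076 with troglitazone, and 368, 336 and 373 with vehicle. The vehicle arrays were close together (359 ± 20.3, SD, n = 3) and the highest treated arrays were those of set 2. Its log2 differences were 0.56, 0.78 and 1.01 for pioglitazone, rosiglitazone and troglitazone, and 0.78 ± 0.25 for their mean (SE, adjusted p 0.162, limma). Within set 1 they were 0.42, 0.62 and 0.75, and in set 2 rosiglitazone and troglitazone lay 1.09 and 1.53 above vehicle.

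Slc6a2, the noradrenaline carrier of sympathetic neurons, gave signals of 659 and 230.3 with pioglitazone, 243, 392 and 224 with rosiglitazone, 678, 660.0 and 456 with troglitazone, and 214, 169 and 127 with vehicle on probe set 99408_at. Troglitazone held 2 of the 3 highest arrays, pioglitazone replicate 1 being the other, and rosiglitazone replicate 4 came closest to vehicle. The log2 difference was 1.82 ± 0.47 for troglitazone (SE, adjusted p 0.0861, limma) and 1.20 ± 0.39 for the mean of the drugs (0.185). Without pioglitazone replicate 2, an array of another group that enters the estimate of the spread, troglitazone passed (1.82, adjusted p 0.0417), the lowest of adjusted p values that ran up to 0.483 over the alternatives. The second probe set, 99409_at, had 267 and 106 with pioglitazone, 275, 218 and 208 with rosiglitazone, 160.2, 366 and 127 with troglitazone, and 231, 208 and 155 with vehicle, with overlapping groups and a log2 difference of 0.00 for troglitazone.

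Slc51a, a subunit of the organic solute and steroid carrier of the basolateral membrane, had signals of 355 and 167 with pioglitazone, 228, 212 and 127 with rosiglitazone, 137, 223 and 137 with troglitazone, and 81.7, 104 and 56.9 with vehicle. The vehicle arrays lay near the floor, and 1 of them under it. Its log2 differences were 1.34, 1.10 and 0.91 for the drugs in the same order, and 1.12 ± 0.44 for their mean (SE, adjusted p 0.35, limma). Slc22a6, the organic anion carrier OAT1 of the kidney, read 106 and 176 with pioglitazone, 141, 141 and 242 with rosiglitazone, 295, 120.1 and 119 with troglitazone, and 81.5, 95.1 and 51.1 with vehicle. Here too the vehicle arrays were near or under the floor, and the mean of the drugs differed by 0.90 ± 0.44 (SE, adjusted p 0.507, limma).

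**Figure D4:**
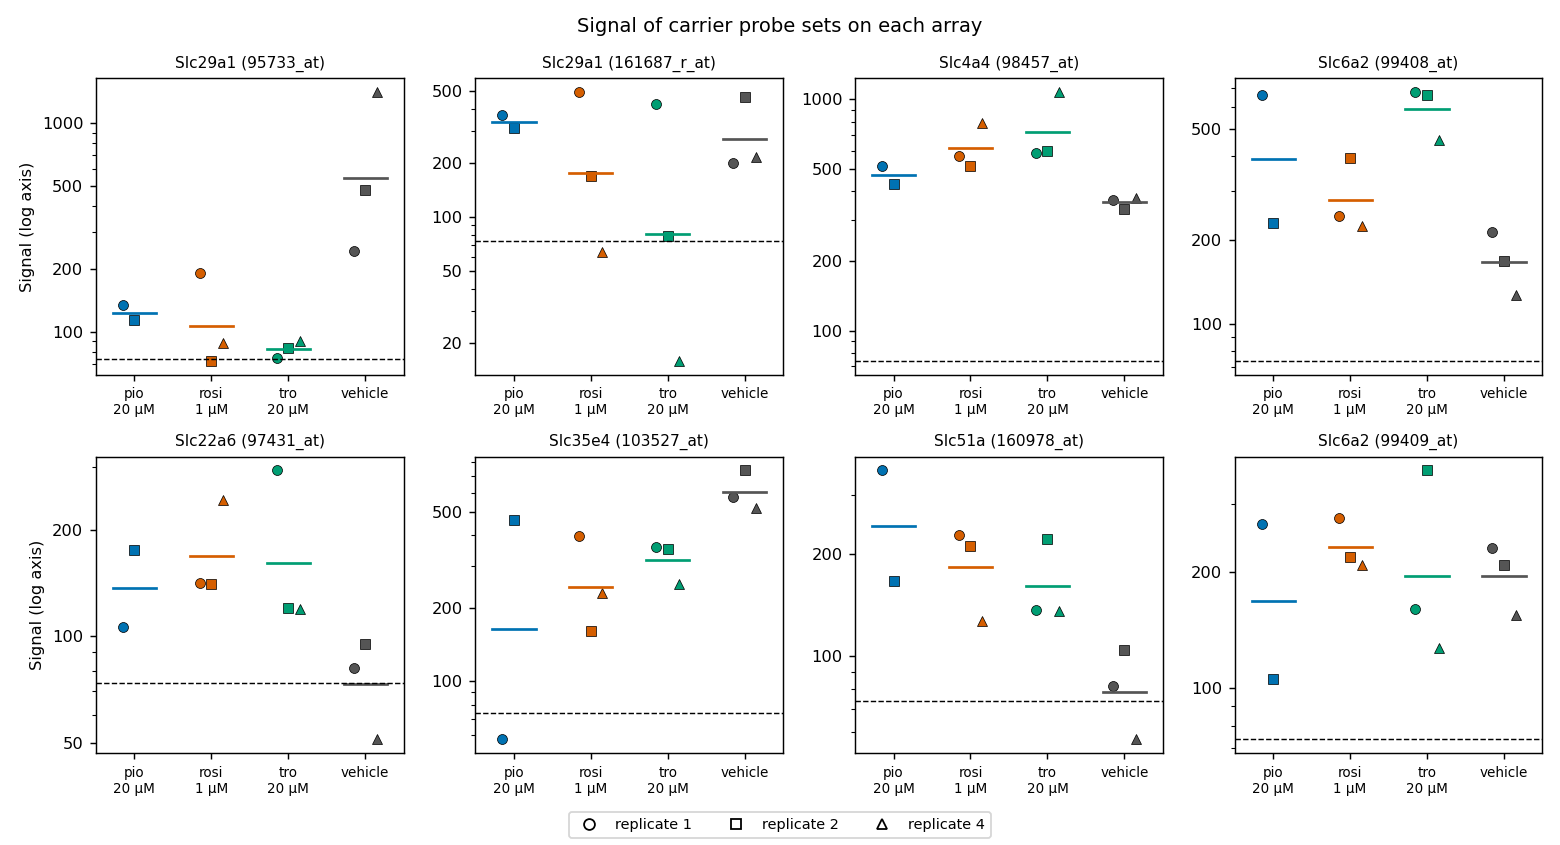
Signals (log axis) on each array for the 6 carrier probe sets whose 8 treated arrays all lay on one side of the 3 vehicle arrays, and for the second probe sets of Slc29a1 and Slc6a2, with the drugs to the left of vehicle, bars at geometric means and a dashed line at the floor. Slc29a1 (95733_at) is low on every treated array (72.1 to 191) beside vehicle (242 to 1411), and its second probe set and that of Slc6a2 show overlapping groups.

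Within single drugs, groups that did not overlap were about as frequent among carriers as on the whole array: 26 members with pioglitazone (17.9%, against 19.4% of all), 17 with rosiglitazone (11.7%, against 10.8%) and 13 with troglitazone (8.97%, against 10.8%). Apart from Slc2a8 and Slc2a3, named as carriers of general cell biology, the members named next had an unadjusted p under 0.05 or were among the 5 highest or lowest of a drug. None of them passed.

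Among the carriers of inorganic ions, Slc8a1, the sodium-calcium exchanger NCX1, had signals of 148 and 104 with pioglitazone, 34.2, 33.2 and 44.7 with rosiglitazone, 33.6, 34 and 67.6 with troglitazone, and 176, 141 and 113 with vehicle on probe set 99524_at. All rosiglitazone and troglitazone arrays were under the floor and all pioglitazone and vehicle arrays above it. The signal was thus at least 1.91-fold lower with rosiglitazone and at least 1.91-fold lower with troglitazone than with vehicle, with adjusted p of 0.233 and 0.27 (limma). Of its other probe sets, 93168_at crossed the floor on 3 arrays and 99525_at was at background. Slc4a2, the anion exchanger AE2, had log2 differences of 0.59 for rosiglitazone and 0.78 for troglitazone (adjusted p 0.444 and 0.29), and its vehicle arrays spread from 539 to 1152. Slc12a2, the sodium-potassium-chloride carrier NKCC1, had 346 and 812 with pioglitazone, 445, 349 and 479 with rosiglitazone, 309, 376 and 340.0 with troglitazone, and 903, 845 and 383 with vehicle. The troglitazone arrays lay below all vehicle arrays, by -0.96 on the log2 scale (adjusted p 0.503). Slc12a4, a potassium-chloride carrier, was the highest member for pioglitazone (944 and 699, against 123, 665 and 553 with vehicle, log2 difference 1.35, adjusted p 0.598). Its low vehicle array, replicate 1, weighed on this value, which was 0.48 without that array and 2.03 without vehicle replicate 2. Slc9a3r1, the scaffold of sodium-proton exchangers, was at 274 and 442 with pioglitazone, against 713, 720.1 and 584 with vehicle (-1.25, adjusted p 0.339).

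Among carriers of amino acids, members of both signs stood at the extremes. Slc1a2, a glutamate carrier of astrocytes, was at 286 and 156 with pioglitazone, against 149, 78.9 and 71.9 with vehicle (log2 difference 1.19, adjusted p 0.427). Slc7a9, the cystine carrier of the kidney, was under the floor on both pioglitazone arrays, against 302, 183 and 57.7 with vehicle (adjusted p 0.504, limma). With low signals set to the floor it was 2.17-fold lower with pioglitazone. This is no bound, because the vehicle array at 57.7 was raised to the floor too. Slc38a4, a neutral amino acid carrier, had 73.8 and 31.8 with pioglitazone, against 68.7, 218 and 300.2 with vehicle, and -1.30 was its log2 difference. Slc3a1, the heavy subunit partner of Slc7a9, topped the rosiglitazone comparison (1.34 ± 0.71, SE) through 1 array: 137, 825 and 172, against 62.3, 219 and 59.2 with vehicle, where replicate 2, the array that stood apart, was the highest. Slc6a13, a GABA carrier, and the cationic amino acid carrier Slc7a3 were among the extremes for troglitazone, at 1.04 and -1.27, each with overlapping groups.

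For organic ions, nucleosides and vitamins, Slc22a5, the carnitine carrier OCTN2, had 62.3 and 171 with pioglitazone, 579.5, 234 and 146 with rosiglitazone, 352, 327 and 137 with troglitazone, and 323, 253 and 138 with vehicle. Only its first pioglitazone array was under the floor, and pioglitazone overlapped vehicle (-1.41, adjusted p 0.488). Slc46a1, the proton-coupled folate carrier, was at 71 to 107 with troglitazone, against 198 to 201 with vehicle, so that these groups did not overlap (-1.26 ± 0.52, SE, adjusted p 0.492). The reduced folate carrier Slc19a1 had a difference of -1.45 for rosiglitazone on probe set 162123_f_at (adjusted p 0.377), where its arrays read 104, 166 and 76.6, against 155, 443 and 398 with vehicle; the second, 94419_at, read 258, 149 and 492, against 199, 154 and 218 with vehicle. Slc22a2, a carrier of organic cations, had -0.83 for troglitazone (adjusted p 0.596). Slc16a1, the lactate and pyruvate carrier MCT1, was under the floor on all vehicle arrays (68.4, 67.8 and 27.2) and above it on all troglitazone arrays (159, 83.9 and 172), which makes it at least 1.79-fold higher with troglitazone (adjusted p 0.378). Slco5a1, an organic anion carrier, was likewise at least 2.28-fold higher with pioglitazone (329 and 86.1, against 72.6, 39.2 and 41.3 with vehicle, adjusted p 0.586).

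Among carriers of metals, Slc11a1, the divalent metal carrier of phagocyte vesicles, read 199 and 186 with pioglitazone, 269, 258 and 275 with rosiglitazone, 161, 47.7 and 37.4 with troglitazone, and 91.9, 109 and 121 with vehicle. Its pioglitazone and rosiglitazone arrays were all above the vehicle arrays, and troglitazone overlapped them. The difference for rosiglitazone was 1.32 ± 0.52 (SE, adjusted p 0.341). The macrophage marker list, 8 genes of which 7 were tested, had summed signals of 2602 to 4123 with pioglitazone, 1489 to 3909 with rosiglitazone, 1499 to 2745 with troglitazone and 2081 to 3881 with vehicle; its part in this value was not tested. Slc39a8, an importer of zinc and manganese, was at the floor on both pioglitazone arrays and above it on all vehicle arrays, at least 2.27-fold lower with pioglitazone (adjusted p 0.392). Slc39a3, another zinc importer, was lowest on troglitazone replicate 1 (74.5) and pioglitazone replicate 1 (89.0), and its difference for troglitazone was -1.16 ± 0.68 (SE).

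Among carriers of sugars and their derivatives, Slc50a1, a sugar carrier of the SWEET family, had 511 and 544 with pioglitazone, 244, 221 and 335 with rosiglitazone, 488, 607 and 614 with troglitazone, and 712, 325 and 709 with vehicle. The rosiglitazone arrays overlapped vehicle, whose replicate 2 read 325 (-1.06 ± 0.36 for rosiglitazone, SE, adjusted p 0.239). The glucose carrier Slc2a8 gave 771 ± 218 with pioglitazone, 762 ± 161 with rosiglitazone, 703 ± 126 with troglitazone and 862 ± 189 with vehicle (SD, n = 2, 3, 3 and 3), and Slc2a3, the glucose carrier of neurons, read 93.9 to 527 over the 11 arrays on probe set 93804_at. Slc35e1 and Slc35a2, relatives and members of the nucleotide sugar carriers, appeared among the extremes. For Slc35e1 the difference with pioglitazone was 1.15 on probe set 161355_f_at and -1.05 on 104475_at, which go opposite ways, and for Slc35a2 that with rosiglitazone was -1.08. Slc22a23, an organic ion carrier relative, had 1.25 with rosiglitazone, again highest on the array that stood apart (486).

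At the matched dose of 20 µM, no carrier passed the test between troglitazone and pioglitazone. Of the 145 members, 0 passed, against 0.0341% of all tested probe sets, and 5 had an unadjusted p under 0.05 (3.45%, against 6.35% of all). The median log2 difference was 0.07 for members and 0.04 for all tested probe sets. The 95% intervals, without adjustment, reached a median of 1.17 to either side. Differences of that size or larger between the drugs could thus be missed, and the missing calls do not show that the drugs act alike. Groups did not overlap for 21 members (14.5%, against 16.3% of all). The smallest p was that of Slc6a9, the glycine carrier GlyT1, with 1628, 1339.6 and 1617 with troglitazone and 483 and 1039.6 with pioglitazone (log2 difference 1.14, adjusted p 0.382). Every troglitazone array was above both pioglitazone arrays. The highest difference was that of Slc22a5 (1.57, 95% interval 0.19 to 2.96, adjusted p 0.70), followed by the neutral amino acid carrier Slc38a2 on probe set 94433_at (1.47). The value of Slc38a2 came from pioglitazone replicate 1 (55.9 beside 629.6 on replicate 2), and it was -0.08 without that array. Slc6a8, which takes up creatine, had a difference of 1.41 on probe set 97748_at but -0.10 on its other probe set, 95625_at. The sodium-chloride carrier Slc12a3 differed by 1.45. Both pioglitazone arrays of Slc12a3 were under the floor, which makes it at least 2.06-fold higher with troglitazone. On the low side, Slc9a8, a sodium-proton exchanger, had 181, 386 and 508 with troglitazone and 631 and 836 with pioglitazone (-1.38, 95% interval -2.52 to -0.25, adjusted p 0.654). Slc38a10, on probe set 161710_r_at, was under the floor on all troglitazone arrays and above it on both pioglitazone arrays (192 and 167), at least 2.43-fold lower with troglitazone (adjusted p 0.65). Its other probe set, 160414_at, was brighter (mean log2 signal 9.08 beside 6.78) and above the floor throughout. There the log2 difference was only -0.34.

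Probe sets of the same gene often differed. Among the 21 genes with several tested probe sets, all had the same sign of the log2 difference in 10 genes for pioglitazone, 11 for rosiglitazone and 9 for troglitazone. Slc31a1, the copper importer, was among those that shared a sign for each drug, with both probe sets above the floor throughout. Slc38a2 had 4 tested probe sets, all of which crossed the floor. Of these, 94433_at was bright on most arrays (55.9 to 629.6). The spread between arrays of a group was slightly larger for members than for like probe sets of the whole array. The median within-group SD was 0.60 log2 units for the members, against 0.55 for all tested probe sets. Among those above the floor on all 11 arrays it was 0.52 for members, against 0.46 for all. Slc12a7, Slc1a5 and Slc44a4 (96761_at) were among the steadiest of the bright members, at 0.17, 0.18 and 0.21.

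Proteins that carriers depend on were followed as a list of 35 genes, the subunits of the sodium pump, ion pumps, chaperones, regulating kinases, water channels and iron uptake proteins, of which 24 were measured and tested. In each of the 5 comparisons 0 passed the test (limma), beside the shares of all probe sets given above, and the counts with an unadjusted p under 0.05 were 4 for pioglitazone (16.7%, against 9.85% of all tested probe sets), 2 for rosiglitazone (8.33%, against 10.5%) and 5 for troglitazone (20.8%, against 8.32%). Between troglitazone and pioglitazone they were 2 (8.33%, against 6.35%), and for the mean of the drugs 3 (12.5%, against 10.5%). The list's median log2 difference was 0.00 for pioglitazone, 0.01 for rosiglitazone, -0.15 for troglitazone and -0.13 for the mean of the drugs. Bsg, the chaperone that brings monocarboxylate carriers to the surface, was bright throughout, at 11841 ± 482 with pioglitazone, 14525 ± 1652 with rosiglitazone, 18195 ± 4897 with troglitazone and 13817 ± 3777 with vehicle (SD, n = 2, 3, 3 and 3).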

How the data were processed

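Total RNA of 11 samples was measured on one-colour oligonucleotide arrays. The authors' deposited values are signal intensities per probe set, already scaled, between 0.4 and 224475. Neither the array software nor the way probes were summarised is given in the sources used here. Over all arrays together the 25th percentile was 73.7; lower deposited signals were set to this floor, and log2 was then taken. Of 12422 probe sets left after 66 controls, 11739 exceeded the floor on 2 arrays or more and entered the tests, and 20.99% of their values were at the floor. On arrays, signal over background and the number of arrays limit the precision.

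Groups came from the sample labels. limma 3.58.1 in R 4.3.3 was fitted to all 11 arrays with a term per group and for the set (6 residual degrees of freedom, intensity trend), two-sided, with Benjamini-Hochberg adjustment within each of 5 contrasts; it was tested on simulated data. Folds from this model are adjusted for the set and can differ from ratios of mean signals. Where a group lay wholly at the floor and every array of the other group was above it, a fold is a bound: the bright group's mean log2 value against the floor, or the dim probe set's own signal where higher.

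Probe sets were named through the platform annotation, and all 156 members were found by gene identifier in the GRCm38.p6 gene table, with 0 symbols changed. Named members were drawn from those past the test, the 5 highest and 5 lowest of each contrast and the 10 brightest with vehicle. Others were drawn from the brightest of each family, carriers of general cell biology, and genes with several probe sets. Not every member of these groups is given. The choice was made partly for an unadjusted p under 0.05 after the values were seen. The members and lists were chosen with earlier results of these data known. Alternatives covered scaling, floor, filter, set term, pairing, variance prior, samples in the fit and left-out arrays. Replicate numbers did not pair the arrays within set 1: the correlations of deviations were -0.099 to 0.095, and 0.289 to 0.362 for replicate 4, which is the set.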

Additional observations from a re-analysis of the deposited data

How the results depend on the processing

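Counts of carriers past the test were recomputed under 23 settings for each comparison (22 for the mean of the drugs, where fitting only the groups compared is the same fit). For rosiglitazone against vehicle and for troglitazone against pioglitazone the count was 0 under all 23. For pioglitazone, the log2 difference of Slc35e4 was -3.14 without pioglitazone replicate 2. It was -3.21 with both that array, which had the highest actin ratio, and rosiglitazone 2, which stood apart in correlation, left out. These fits held 1 pioglitazone array. The count for pioglitazone was 0 under every setting that kept both its arrays. For troglitazone it was 1 with a constant added instead of a floor and 0 to 1 over the left-out arrays (1 for Slc29a1 without vehicle 1 and 1 for Slc6a2 without pioglitazone 2). For the mean of the drugs it was 0 under quantile normalisation, a floor at the 50th percentile, no filter, no set term, set 1 alone and no intensity trend, and 0 to 1 over the left-out arrays. Slc29a1 (95733_at) passed in 6 of these 22 settings, with log2 differences from -2.90 to -1.32 and adjusted p from 0.0215 to 0.36; without pioglitazone 2 and with both arrays out the 1 call was Slc35e4 (adjusted p 0.0429 and 0.0356). The replicate block, with the numbers as blocks in place of the set term, left the counts of carriers called at 0, 0, 0, 0 and 1 (Slc29a1, -2.34, adjusted p 0.0418) and changed no call. Members at background numbered 0 with a floor at the 10th percentile (32.2) and 58 at the 50th (207.7), by construction of the floor. Median centring moved the median pioglitazone difference to 0.06 over all tested probe sets and 0.00 over carriers, against -0.08 and -0.13. Signs turned for values near 0 and for values resting on 1 array: Slc39a4 (162284_r_at, mean of the drugs) read 0.08 with median centring, 0.03 without a set term, 0.13 in set 1 alone, 0.02 with both arrays out and -0.09 to 0.13 over the left-out arrays (0.13, 0.05, 0.06 and 0.01 without vehicle 4, pioglitazone 2, rosiglitazone 4 and troglitazone 1); Slc1a5 read -0.03 with quantile normalisation and -0.04 in set 1 alone and without vehicle 4, and -0.04 to 0.16 over the left-out arrays; Slc29a1 (161687_r_at) 0.03 with the floor at the 50th percentile; Slc6a2 (99409_at, troglitazone) -0.05 and -0.39 without vehicle 2 and troglitazone 2 (-0.39 to 0.26 over the left-out arrays); and Slc38a2 (94433_at, troglitazone against pioglitazone) -0.08 without pioglitazone 1 (-0.08 to 3.02 over the left-out arrays). The cause was not tested beyond the left-out arrays named. The remaining 1948 recomputed values of single probe sets kept their side of the threshold and did not turn to the opposite sign. Some of them rounded to 0.00, as for Slc46a1 with troglitazone. For a dim carrier the floor bounds the fall that could be measured.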

Other observations

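Of the 7 carriers left out by name, all were measured and tested. Slc2a1, the glucose carrier of most cells, rose with troglitazone and over the mean of the 3 drugs (1.49 on the log2 scale for the mean, adjusted p 0.00592, limma), and the other 6 did not pass in any comparison. The median log2 difference of these 7 was -0.04 for pioglitazone, -0.18 for rosiglitazone and -0.10 for troglitazone.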
